A study of Mus musculus with 4 samples.

Results

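The nuclear genes for the respiratory chain and ATP synthase were examined in 2 lists of N6-methyladenosine (m6A) peaks from mouse liver RNA. They were chosen by symbol, as Nduf (complex I), Sdh (complex II), Uqcr (complex III), Cox followed by a digit (complex IV) and Atp5 (ATP synthase) genes with a peak in either list. The rule gave 55 genes of the 9650 with a peak, with 40 of 14693 peaks in livers of Alkbh5-HKO mice (HKO) and 58 of 14057 peaks in livers of Alkbh5flox/flox mice (FF). By their symbols, 40 of the 55 are subunits, 14 are assembly factors (Ndufaf, Sdhaf and the Cox genes for cofactor delivery and maturation) and 1, Ndufs5-ps, is a transcribed pseudogene.

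The assay was methylated RNA immunoprecipitation sequencing, in which antibody-bound RNA fragments (IP) are sequenced beside unselected fragments (input), and a peak is a stretch of exon with more IP reads than its input predicts. Alkbh5 encodes a demethylase that removes m6A from RNA. HKO mice are Alkbh5 knockouts by name and FF mice carry floxed Alkbh5 alleles. The labels neither spell out the abbreviation HKO nor name a Cre driver. Mice of both genotypes were kept on normal chow to 9 weeks of age, and each genotype was represented by 1 pool of liver RNA from 3 mice. There was therefore no replicate, no comparison between the genotypes was tested, and all values below describe these pools.

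The respiratory chain passes electrons through complexes I to IV of the inner mitochondrial membrane, and the proton gradient this builds drives ATP synthase. Most subunits are encoded by short nuclear genes whose mRNAs are abundant in liver, while a core set is encoded by mitochondrial DNA. Assembly factors insert iron-sulfur clusters, flavin, heme and copper or hold intermediates together, and are not part of the finished complexes. In most mRNAs m6A is densest around the stop codon and in the 3′ part of the transcript.

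Alkbh5 itself had 0 HKO peaks and 3 FF peaks. No library depth could be read from the lists, and no list gives RNA levels, so the absence of a peak is not an absence of methylation. Hepatocyte markers had peaks on 10 of 10 genes, with 2 in the HKO list alone, 1 in the FF list alone and 7 in both. Of the Kupffer cell and endothelial cell markers, 2 of 3 each had peaks, all in both lists. All 3 stellate cell markers had peaks, Dcn and Col1a1 in the HKO list alone and Lrat in both, and the part of these cells in the results below was not tested. In bulk liver RNA fewer cells of a type and less RNA per cell cannot be told apart. Start peaks were less frequent in the HKO list than in the FF list over all genes, with 7.38% of 14693 HKO peaks and 15% of 14057 FF peaks having their centre 500 bp or less from the annotated start of the gene.

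Many peaks of the 55 genes lay at gene starts, so the start regions of a few are shown first. For each complex, the sequence is that of the gene with peaks in the FF list alone whose start-centred peak had the smallest q and whose promoter was matched. Ndufa12 is added because its HKO and FF peaks lay at opposite ends of the gene, and Cox15 because it carried the highest fold of all 55 genes, away from the start. Each run holds 90 bases before and 30 bases after the RefSeq start on GRCm38.p6, read along the transcript. Capitals mark CCGGAAG, the site of the ETS factor GABP, and TGACCT, the half-site of nuclear receptors such as ERRα, in either orientation. The windows lie at chr8:83566668-83566787 (plus strand) for Ndufb7, chr4:140961181-140961300 (plus) for Sdhb, chr4:116075041-116075160 (minus) for Uqcrh, chrX:106015610-106015729 (plus) for Cox7b, chr10:128083217-128083336 (plus) for Atp5b, chr10:94198945-94199064 (plus) for Ndufa12 and chr19:43752971-43753090 (minus) for Cox15.
Ndufb7: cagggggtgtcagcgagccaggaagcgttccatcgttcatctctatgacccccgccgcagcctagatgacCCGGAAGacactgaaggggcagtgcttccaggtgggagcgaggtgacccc
Sdhb: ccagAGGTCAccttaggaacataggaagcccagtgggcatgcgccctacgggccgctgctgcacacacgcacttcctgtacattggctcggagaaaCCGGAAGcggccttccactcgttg
Uqcrh: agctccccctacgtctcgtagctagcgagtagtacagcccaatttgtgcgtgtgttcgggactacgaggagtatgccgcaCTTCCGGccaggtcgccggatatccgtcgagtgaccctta
Cox7b: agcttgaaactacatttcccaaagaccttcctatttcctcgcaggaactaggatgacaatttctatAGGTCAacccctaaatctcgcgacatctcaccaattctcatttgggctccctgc
Atp5b: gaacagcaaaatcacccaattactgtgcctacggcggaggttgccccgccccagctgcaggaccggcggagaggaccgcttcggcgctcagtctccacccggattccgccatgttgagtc
Ndufa12: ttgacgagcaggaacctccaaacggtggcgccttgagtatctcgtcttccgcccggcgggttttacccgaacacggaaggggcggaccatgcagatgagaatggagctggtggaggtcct
Cox15: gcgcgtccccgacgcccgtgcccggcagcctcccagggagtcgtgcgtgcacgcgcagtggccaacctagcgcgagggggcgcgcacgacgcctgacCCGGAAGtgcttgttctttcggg

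A gene was counted in both lists if each held a peak on it. Of the 55 genes, 6 had a peak in the HKO list alone (10.9%, Wilson 95% interval 5.1 to 21.8), 21 in the FF list alone (38.2%, 26.5 to 51.4) and 28 in both (50.9%). Over all 9650 genes the shares were 13.2% HKO alone, 11.2% FF alone and 75.6% both. The intervals cover counting error only. The genes are short, with a median span of 7.51 kb against 22.1 kb over all genes with a peak, and 37 of 55 spanned 10 kb or less. Among all 2531 genes of that size the shares were 12.9% HKO alone, 15.8% FF alone and 71.3% both. The share in the FF list alone was thus above both backgrounds, and the share in the HKO list alone was close to them.

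Subunits and assembly factors were then counted apart. Of 40 subunit genes, 6 were in the HKO list alone, 19 in the FF list alone (47.5%, 32.9 to 62.5) and 15 in both. Of 14 assembly factor genes, 0 were in the HKO list alone, 2 in the FF list alone (14.3%, 4.01 to 39.9) and 12 in both. The 2 classes had like spans, with medians of 7.58 kb for subunits and 7.59 kb for assembly factors. The share of assembly factors in the FF list alone was near the backgrounds of 11.2% and 15.8%, and that of subunits was above them. Whether the classes differ was not tested.

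**Figure D1:**
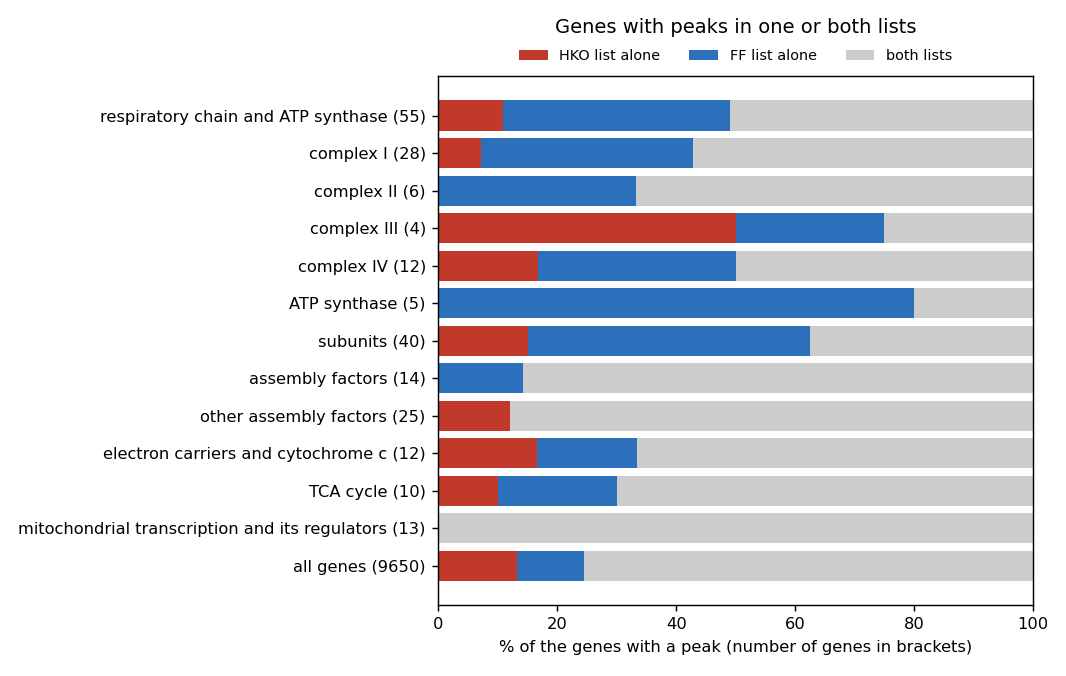
Share of genes with a peak in the HKO list alone (red), the FF list alone (blue) and both lists (grey), as % of the genes with a peak (x axis, 0 to 100), for the 55 genes, each complex, each class, related gene lists and all 9650 genes. Subunits show 47.5% in the FF list alone, assembly factors 14.3% and all genes 11.2%.

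By complex, the ATP synthase genes leaned furthest, with 0 of 5 in the HKO list alone, 4 in the FF list alone and 1 in both. Complex I had 2, 10 and 16 of 28 genes in HKO alone, FF alone and both, complex II had 0, 2 and 4 of 6, and complex IV had 2, 4 and 6 of 12. Complex III was the exception, with 2 in HKO alone, 1 in FF alone and 1 in both of 4. Numbers this small leave wide intervals, from 37.6 to 96.4% for the FF-alone share of ATP synthase and from 4.56 to 69.9% for complex III.

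Peaks overlapping no peak of the other list by at least 1 bp of exon on the same strand are called list-specific here. They made up 13 of 40 HKO peaks, against 28.5% of all HKO peaks, and 29 of 58 FF peaks, against 25.2% of all FF peaks. Their positions were opposite. Of the HKO-specific peaks, 3 of 13 (23.1%) had their centre 500 bp or less from the gene start and 11 of 13 (84.6%) had it 1000 bp or less from the gene end. Among FF-specific peaks, 21 of 29 (72.4%) were at the start and 2 of 29 (6.9%) at the end. Without Ndufb4, Ndufb4c and Ndufs5-ps, whose reads are uncertain because close copies exist, the HKO-specific start share was 9.09% of 11. The 1 peak of Ndufb4c, a gene shorter than both windows together, counts in each. In the counts of all and of overlapping peaks below, so do the peaks of Ndufs5-ps in both lists and of Sdhaf1 in FF.

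The order of the lists was the same over all genes. List-specific peaks at the start were 4.71% of HKO-specific and 34.7% of FF-specific peaks, and those at the end 33.5% and 17%. Among genes of 10 kb or less, a background added after the peaks were seen, the start shares were 9.18% and 42.6%, and the end shares 54.7% and 26.4%. The start share of the FF-specific peaks and the end share of the HKO-specific peaks were above both backgrounds in the respiratory chain genes. The start share of the HKO-specific peaks was above them as well, but close to that of short genes without the close copies. Counting all peaks, 12 of 40 HKO peaks (30%, 18.1 to 45.4, background 7.38%) and 33 of 58 FF peaks (56.9%, 44.1 to 68.8, background 15%) were at the start. At the end were 17 of 40 HKO peaks (42.5%, background 30.9%) and 8 of 58 FF peaks (13.8%, background 26.5%). On genes of 10 kb or less, 13.2% of HKO and 22.6% of FF peaks were at the start, and 47.7% of HKO and 39.9% of FF peaks at the end. Against short genes, the end share of all HKO peaks was thus not raised. Peaks that overlapped between the lists were also often at starts, 9 of 27 in HKO (33.3%) and 12 of 29 in FF (41.4%), against 8.44% and 8.39% of all such peaks. At the end were 6 of 27 overlapping HKO peaks and 6 of 29 overlapping FF peaks, against 29.8% and 29.7%. For overlapping peaks the shares on short genes alone were not computed.

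Judged by the 5′ edge in place of the centre, 12 of 40 HKO peaks and 34 of 58 FF peaks began within 100 bp of the gene start, with backgrounds of 5.76% and 12.3%. This measure was added after the peaks were seen, because a peak that crosses the first intron can have its centre in exon 2. Peaks spanning more than 1 exon were 12 of 40 in the HKO list (30%, background 13.9%) and 30 of 58 in the FF list (51.7%, background 17.4%). Of these multi-exon FF peaks, 20 began at the gene start, as did 4 of the multi-exon HKO peaks. The same share over all multi-exon peaks was not computed. The backgrounds for the 5′ edge and for multi-exon peaks cover genes of all lengths, and those of short genes were not computed.

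**Figure D2:**
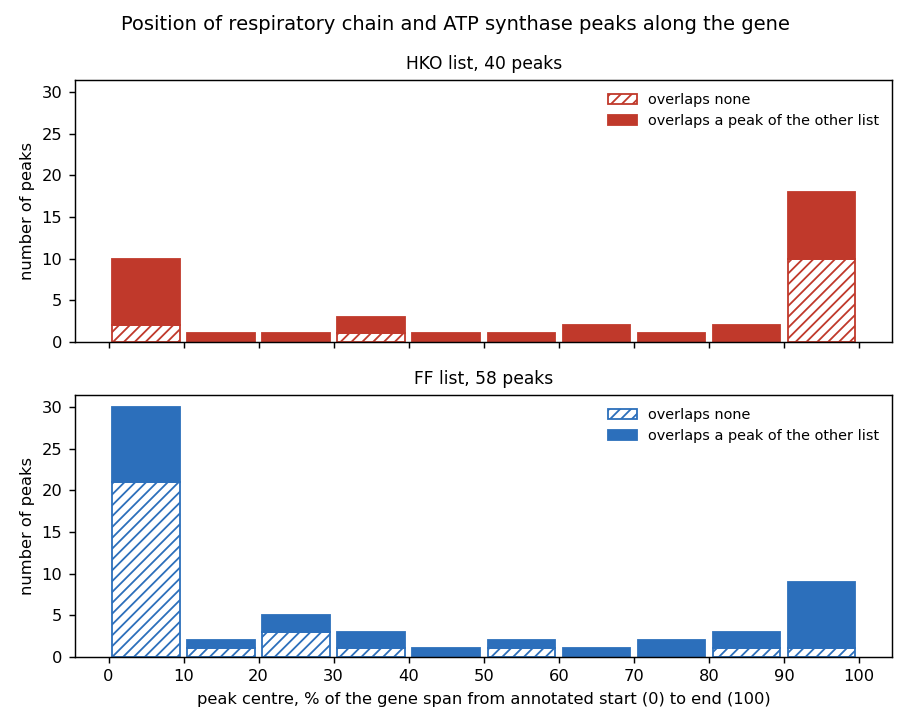
Position of the 40 HKO peaks (upper panel) and 58 FF peaks (lower panel) along the gene, as % of the span from annotated start (0) to end (100), in bins of 10%; the y axis is the number of peaks and hatching marks peaks with no overlap in the other list. FF peaks crowd the first bin and HKO peaks the last.

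Complex I, the NADH dehydrogenase, had 23 HKO peaks and 32 FF peaks. Among the catalytic core genes, which carry the flavin, the iron-sulfur clusters and the quinone site, Ndufv1, Ndufv2, Ndufs3 and Ndufs7 had no peak in either list. Ndufs1, the largest iron-sulfur subunit, had 2 HKO peaks, 1 near the start at chr1:63176584-63176733 (fold 4.53) and 1 near the end at chr1:63143652-63143830 (3.31), and 1 FF peak at chr1:63176494-63176733 (13.7). Fold here means IP over input within a peak, as the authors computed it. The start peaks overlapped, and the end peak had no FF counterpart.

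Ndufs8, a subunit with iron-sulfur clusters, had 0 HKO peaks and 1 FF peak centred 176 bp from the start at chr19:3912481-3912715 (fold 4.25, log10 q -6.94).

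Accessory subunits supplied 7 of the 10 complex I genes in the FF list alone. Ndufb7 had 0 HKO peaks and 2 FF peaks, at the start (chr8:83566758-83570893, fold 3.90, log10 q -62.2) and at the end (chr8:83571446-83571623, 2.24, -25.3). Its start peak began at the first base after the 90 promoter bases of the printed sequence. Ndufb2 (fold 2.79), Ndufb6 (2.41), Ndufb8 (6.61), Ndufc2 (6.17) and Ndufs6 (7.32), a zinc-binding subunit, each had 0 HKO peaks and 1 FF peak centred 105 to 134 bp from the start. Ndufa2 had 0 HKO peaks and 1 FF peak near its end (fold 2.57, log10 q -60.9). Over these 7 genes the FF folds ran from 2.24 to 7.32 and the log10 q from -62.2 to -7.49.

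Ndufa12 and Ndufab1, the mitochondrial acyl carrier protein, had 1 peak in each list at opposite ends of the gene. Ndufa12 had its HKO peak 640 bp from the end at chr10:94220696-94220905 (fold 7.92, log10 q -16.9) and its FF peak 90 bp from the start at chr10:94199035-94200032 (2.57, -2.32). Ndufab1 had its HKO peak 406 bp from the end at chr7:122087145-122087295 (fold 10.6, log10 q -3.92) and its FF peak 90 bp from the start at chr7:122101668-122101848 (2.81, -10.6). With Uqcrc2, they were the 3 of 28 genes in both lists whose peaks did not overlap, against 4.09% of all genes in both lists, and all 3 had the same order, HKO at the end and FF at the start.

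Ndufb4 and Ndufb4c, close copies of each other, were the only complex I genes in the HKO list alone. Ndufb4 had 1 HKO peak 57 bp from the start at chr16:37654255-37654368 (fold 15.3, log10 q -3.04) and 0 FF peaks. Ndufb4c had 1 HKO peak at chr15:73809705-73809819 (fold 11, log10 q -1.93) and 0 FF peaks. Reads of these copies may be shared, and both peaks are therefore uncertain. Ndufs5-ps, a copy of Ndufs5 lying within the span of Zbtb20, had 1 HKO peak (fold 13.0, log10 q -148) and 1 FF peak (7.35, -99.9), and Ndufs5 itself had none. These reads too cannot be assigned with certainty.

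Other accessory subunits with overlapping peaks differed in both directions. Ndufa9 had an HKO fold of 10.5 and an FF fold of 2.08, and Ndufb11 had 12.4 and 2.35 at its start. The Ndufb11 peaks differed in length, 235 bases in HKO and 528 in FF. Their log10 q went the other way from the folds, -12.7 in HKO and -61.2 in FF. Ndufa8 had an HKO fold of 1.98 and an FF fold of 6.68, and Ndufb10 had 1.32 and 3.22. Ndufb9 (2.99 and 4.43), Ndufb1 (1.46 and 2.08) and Ndufa5 (3.31 and 1.51) had smaller differences, within 2-fold after the centring described below. Ndufv3, an accessory subunit of the flavoprotein part, had an HKO peak of fold 18.3 that overlapped 2 FF peaks of 10.4 and 2.92, and a second, HKO-specific peak 120 bp from the end (4.32).

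Of the 5 complex I assembly factors with a peak, 4 were in both lists, at folds that varied widely. Ndufaf4, needed to build the quinone module, had the most peaks of the 55 genes and the highest folds of complex I. Its 2 HKO peaks had folds of 22.2 (log10 q -189) and 20.4, and its 3 FF peaks 3.72 at the start, 15.9 (log10 q -131) and 9.14. The HKO peak of 22.2 overlapped both the FF start peak and the FF peak of 15.9. Ndufaf1, of the membrane arm assembly complex, had HKO folds of 13.4 and 3.64 at the end, and FF folds of 7.93 and 10.2 at the start. The peaks of 13.4 and 7.93 overlapped and the others did not.

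Ndufaf2 had HKO folds of 5.23 and 4.44 and an FF fold of 2.58, and the HKO peak of 4.44 lay 296 bp from the end without an FF counterpart. Ndufaf7, a methyltransferase that acts in complex I assembly, had an HKO fold of 4.63 and an FF fold of 12.2 at peaks centred 1017 bp and 1002 bp from the gene end. Ndufaf8 had 0 HKO peaks and 1 FF start peak (fold 2.44, log10 q -2.46).

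**Figure D3:**
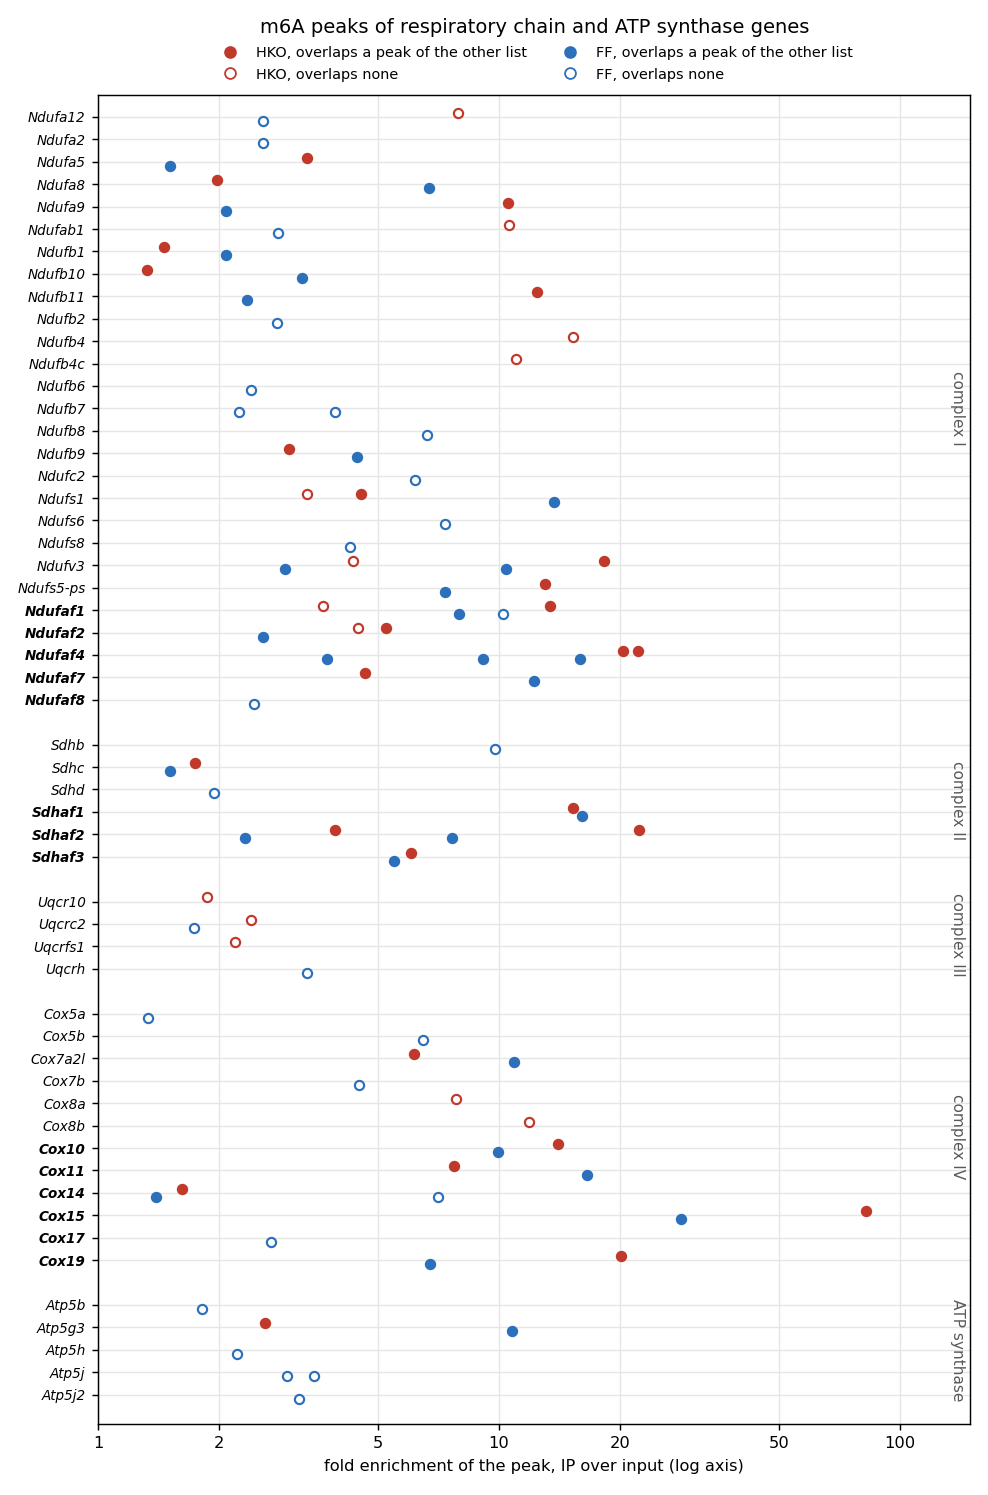
Fold enrichment, IP over input (x axis, log scale), of every peak on 54 of the 55 genes (1 complex I gene is not drawn), grouped by complex, with HKO in red and FF in blue. Filled points overlap a peak of the other list and open points do not; symbols in bold are assembly factors. Cox15 has the highest point in each list (82.5 in HKO and 28.5 in FF).

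Complex II, succinate dehydrogenase, had 5 HKO peaks and 7 FF peaks on 6 genes, and none on Sdha, the flavin subunit. Sdhb, the iron-sulfur subunit, had 0 HKO peaks and 1 FF peak at chr4:140961361-140966529, from 90 bases after the start across the first intron (fold 9.79, log10 q -9.02). Sdhd, a membrane anchor, had 0 HKO peaks and 1 FF start peak (fold 1.94, log10 q -3.50). Sdhc, the other anchor, had overlapping peaks with an HKO fold of 1.74 and an FF fold of 1.51.

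All 3 complex II assembly factors with a peak were in both lists, with overlap at each of their 4 HKO and 4 FF peaks. Sdhaf2, which attaches flavin to SDHA, had HKO folds of 22.3 and 3.90 and FF folds of 7.61 and 2.32. Sdhaf1, which serves the iron-sulfur clusters, had an HKO fold of 15.3 (log10 q -133) and an FF fold of 16.1 (log10 q -84.9). Sdhaf3, a factor with a like role, had 6.03 in HKO and 5.48 in FF. None of these peaks was HKO- or FF-specific, in contrast to Sdhb and Sdhd.

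Complex III, the cytochrome bc1 complex, had 3 HKO peaks and 2 FF peaks on 4 of 8 annotated genes, and none of them overlapped. The 3 HKO peaks were at gene ends and the 2 FF peaks at gene starts. Uqcrfs1, the Rieske iron-sulfur protein, had an HKO peak 224 bp from the end at chr13:30540491-30540580 (fold 2.19, log10 q -3.78) and no FF peak. Uqcr10, a small subunit, had an HKO peak 44 bp from the end at chr11:4701968-4702055 (1.87, -10.1) and no FF peak. Uqcrc2, a core protein, had an HKO peak 314 bp from the end (2.40, -8.66) and an FF peak 120 bp from the start (1.73, -1.81). Uqcrh, the hinge protein, had no HKO peak and an FF peak 58 bp from the start at chr4:116074955-116075070 (3.32, -14.3), whose first base follows the promoter part of the printed sequence. All 5 folds were 3.32 or less.

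Complex IV, cytochrome c oxidase, had 8 HKO peaks and 11 FF peaks. A peak was found on 6 of 18 annotated subunit genes and 6 of 9 assembly factors. The 18 include isoforms of other tissues, such as Cox8b, and RNA levels are not given, so these shares cannot be compared as methylation. Cox5b had 0 HKO peaks and 1 FF start peak (fold 6.46, log10 q -3.92), Cox7b 0 and 1 at its start (4.48, -17.6), and Cox5a 0 and 1 at chr9:57521306-57521395 (1.33, -3.06), the lowest fold in the FF set. The Cox5a peak counts as away from the gene start, from which it began 3978 bases inside the gene span. The RefSeq promoter start of Cox5a lies shortly before the peak, 3904 bases inside the span. Cox7a2l, a subunit of respiratory supercomplexes, had overlapping peaks at its end with the smallest q of complex IV, with an HKO fold of 6.12 (log10 q -294) and an FF fold of 10.9 (log10 q listed as minus infinity).

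Of the COX8 isoform genes, Cox8a and Cox8b were in the HKO list alone and Cox8c had no peak. Cox8a, the isoform of liver and most tissues, had an HKO peak 44 bp from the end at chr19:7215158-7215244 (fold 7.81, log10 q -14.2) and no FF peak. Cox8b, the isoform of heart, muscle and brown fat, had an HKO peak 98 bp from the start at chr7:140900279-140900418 (11.9, -2.82) and no FF peak. Of 6 muscle or brown fat markers, 1 had a peak, Myh1 with 1 HKO peak of fold 7.85 (log10 q -5.35), while Ckm, Acta1, Myh6, Ucp1 and Cidea had none in either list. The part of other tissue in the Cox8b peak was not tested. Among other COX subunits with tissue isoforms, neither Cox4i1, Cox6a1, Cox6b1 and Cox7a2, found in liver, nor Cox4i2, Cox6a2, Cox6b2, Cox7a1 and Cox7b2 had a peak. Ndufa4, now placed in complex IV, and its relative Ndufa4l2 had none either.

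The complex IV assembly factors again had peaks in both lists in 5 of 6 cases. Cox15, the heme A synthase, had the highest fold of the 55 genes in each list, 82.5 in HKO at chr19:43736492-43738066 (log10 q -108) and 28.5 in FF at chr19:43736462-43736852 (log10 q -77.1). Cox10, which acts just before it in heme A synthesis, had 14.0 in HKO and 9.92 in FF, centred 1388 bp and 1522 bp from the gene end. Cox19, a copper-handling protein, had 20.1 in HKO and 6.72 in FF. Cox11, which helps insert copper, had 7.71 in HKO and 16.6 in FF at its start.

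Cox14, a factor for COX1 synthesis, had overlapping end peaks with a fold of 1.62 in HKO and 1.39 in FF, and a start peak in FF alone (7.05, log10 q -21.2). Cox17, the copper chaperone, had 0 HKO peaks and 1 FF peak centred 146 bp from the start (2.70, -27.5). The heme A pair thus had its peaks far from the start and in both lists.

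ATP synthase had 1 HKO peak and 6 FF peaks on 5 of 17 annotated genes. Atp5b, the catalytic beta subunit, had 0 HKO peaks and 1 FF peak at chr10:128083307-128083894 (fold 1.81, log10 q -8.68), which began at the first base of the gene. Atp5j2, the membrane subunit f, had 0 and 1, a peak crossing from exon to exon from the gene start (3.17, -29.3). Atp5j, coupling factor 6, had 0 and 2 (3.45 and 2.96), and its span overlaps that of Gabpa. Atp5h, a stalk subunit, had 0 and 1 (2.22, -2.05).

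Atp5g3 was the single ATP synthase gene in both lists. It encodes subunit c of the rotor ring, the same protein as Atp5g1 and Atp5g2, which had no peak. Its peaks overlapped, with an HKO fold of 2.60 (log10 q -150) and an FF fold of 10.8 (log10 q listed as minus infinity). After centring this was the lowest HKO over FF ratio of the 27 overlapping pairs. The pair counts as away from the gene start, but both peaks cover the RefSeq promoter start of Atp5g3, which lies 1138 bases inside the gene span.

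Folds of overlapping peaks were then set side by side. They come from separate IP reactions, so the log2 ratio of HKO fold over FF fold was centred on its median over all 10511 overlapping HKO peaks, 0.26, and a pair was called past 2-fold at 1 or more on that scale. Uncentred, the HKO fold was above the FF fold in 17 of 27 pairs on these genes and in 58.3% of all pairs. After centring, 6 of 27 were past 2-fold higher in HKO (background 21.3%) and 7 past 2-fold lower (background 21%), shares near the background. The centred median was 0.22.

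The pairs past 2-fold higher in HKO were those of Ndufv3 (2.39), Ndufb11 (2.14), Ndufa9 (2.08), Cox19 (1.32), Sdhaf2 (1.29) and Cox15 (1.28), as centred log2 ratios. Those past 2-fold lower were Atp5g3 (-2.31), Ndufa8 (-2.01), Ndufs1 (-1.85), Ndufaf7 (-1.66), Ndufb10 (-1.54), Cox11 (-1.36) and Cox7a2l (-1.09). The Ndufv3 value pairs the HKO peak with the FF peak of longest overlap; against its other FF partner (fold 10.4) the pair was within 2-fold. The classes differed in their medians, with -0.80 over 12 subunit pairs and 0.37 over 14 assembly factor pairs, and the HKO fold was above the FF fold in 5 of 12 and 11 of 14 pairs.

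Position went along with this split. Of the 9 pairs with the HKO peak at the gene start, 1 was past 2-fold higher and 4 past 2-fold lower in HKO (centred median -0.83), and of the 18 pairs elsewhere, 5 were higher and 3 lower (0.23). The shares over all genes were 8.68% higher and 52.1% lower for start pairs, and 22.4% and 18.1% for the others. The counts on these genes were thus not far from the background. Over all genes, pairs at the start had a centred median of -1.12 and the others 0.07. The HKO fold was below the FF fold in 5 of 9 start pairs on these genes, against 70.7% of all start pairs, and in 5 of 18 other pairs, against 38.8%. Judged by an HKO 5′ edge within 100 bp of the start, there were 10 start pairs. In these the HKO fold was below the FF fold in 6 and above it in 4. By that measure Ndufa9, counted elsewhere by its centre, is a start pair. Subunit pairs lay at starts in 6 of 12 cases and assembly factor pairs in 2 of 14. How far position accounts for the difference between the classes was not tested.

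**Figure D4:**
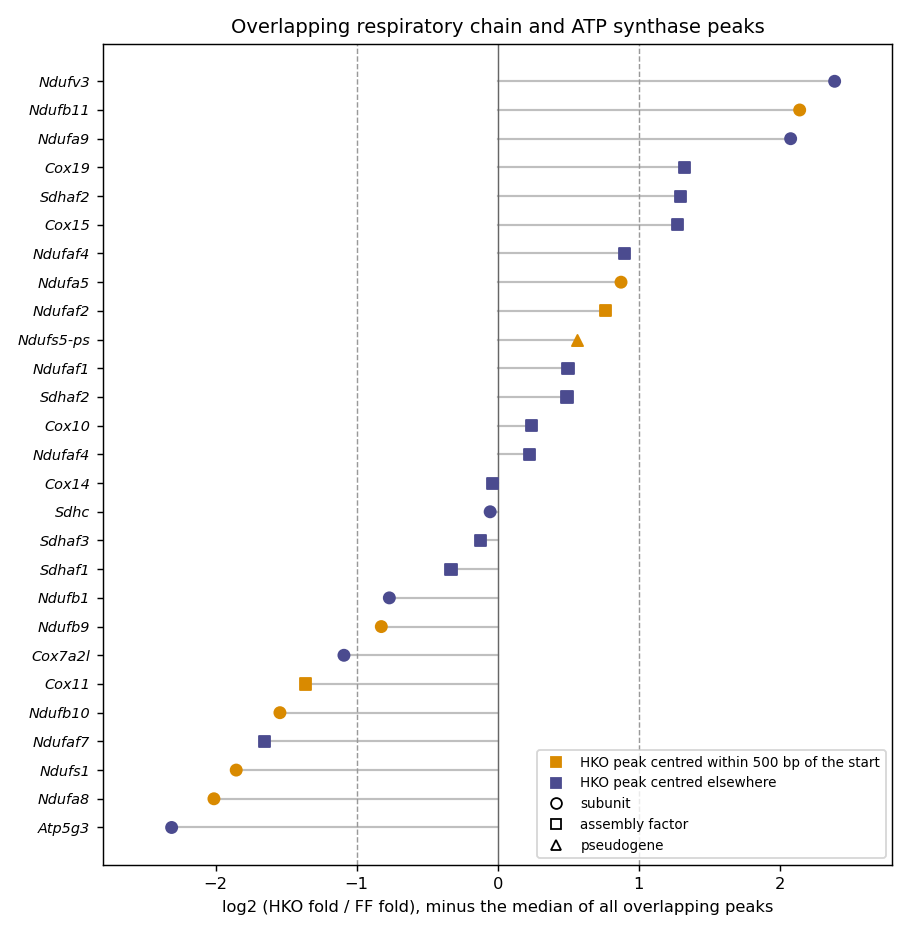
Log2 of HKO fold over FF fold for the 27 overlapping pairs, minus the median of all overlapping peaks (x axis); circles are subunits, squares assembly factors and the triangle the pseudogene, in orange where the HKO peak was centred within 500 bp of the gene start. Dashed lines mark 2-fold; 6 pairs lie beyond on the right, 7 on the left and 14 between.

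Fold levels also set the classes apart within each list. Subunit peaks had a median fold of 4.32 in the HKO list and 3.20 in the FF list, assembly factor peaks 10.6 and 7.61, and all peaks 10.4 and 8.80. The 55 genes together had a median of 6.08 in HKO and 4.08 in FF. For subunit peaks the log10 q had medians of -10.1 in HKO and -11.1 in FF, against -8.70 and -7.79 over all peaks. Assembly factor peaks had medians of -24.9 in HKO and -21.2 in FF. Subunit peaks thus had lower folds than all peaks without weaker q, but both lower folds and weaker q than assembly factor peaks. A fold is a ratio and says nothing about the number of reads behind it.

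Promoter motifs, which the choice of genes did not use, were then counted. RefSeq promoter sequences, from 250 bases before to 50 after the start on GRCm38.p6, were matched for 46 of the 55 genes. This start equalled the gene start used for peak positions in 39 of them. It lay inside the gene span in the others, by 1138 bases for Atp5g3 and 3904 for Cox5a. CCGGAAG was found on either strand in 16 of 46 (34.8%), against 9.08% of 27025 promoters. AAGATGGCG, the site of YY1, was found in 5 of 46 (10.9%, all promoters 1.49%), TGACCT in 11 of 46 (23.9%, 16.2%) and the palindromic site of NRF1 in 1 of 46 (2.17%, 0.962%). None of the searched motifs contains another. A match describes letters and not binding. The background holds all promoters, also those of genes without a peak, and other genes with a peak were not counted apart. Among the genes in the FF list alone, 8 of 18 promoters held CCGGAAG (44.4%), against 34.8% of all 46, a difference not tested. They included those of Ndufb7, Sdhb and Uqcrh shown. The share was 35.7% of the 28 genes with an FF peak centred at the start and 33.3% of the other 18, so it hardly differed with that position.

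The transcript start was looked at for what an m6A antibody could bind there. As background, the core of the m6A consensus is GGAC, and such antibodies also bind m6Am, a modified adenosine that can be the first base after the cap. GGAC lay within the first 50 transcribed bases, on the transcript strand, in 12 of 46 genes (26.1%), against 18.9% of all, and in 7 of the 28 genes with an FF peak centred at the start (25%). Anywhere in the 300 bases and on either strand it was nearly universal, at 97.8% against 87.6%. The annotated first base was A in 17.4% of the 46 genes and in 14.3% of those 28, against 35.2% of all, and G in 60.9% and 71.4%, against 35.2%. RefSeq gives 1 start per gene and most genes use several, and which base carries the signal was not tested.

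Related mitochondrial genes were counted from lists, beside the background shares above. The 13 subunits encoded by mitochondrial DNA had no peak, and neither list held a peak on the mitochondrial chromosome. Of 33 symbols of other assembly factors, 25 had a peak, with 3 in the HKO list alone (Tmem126a, fold 3.56, Lyrm7, 54.3, and Atpif1, 10.8), 0 in the FF list alone and 22 in both. Lyrm7 matures the Rieske protein. Atpif1 encodes the inhibitor of ATP synthase and is not itself an assembly factor. Atp5if1, another symbol of Atpif1, is also listed, without a peak, so the 33 symbols are not all separate genes. Like the Ndufaf, Sdhaf and Cox assembly factors, the genes of this list with a peak were mostly in both lists, as were 75.6% of all genes with a peak.

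The electron carrier and coenzyme Q genes had 12 of 17 with a peak, with 2 in HKO alone (Coq2, fold 4.09, and Coq5, 7.64), 2 in FF alone and 8 in both. The 2 in FF alone were Cyc1, the cytochrome c1 subunit of complex III (3.05), and Etfb (21.9), both with the peak at the start. Etfdh, which feeds electrons from fat oxidation to coenzyme Q, had an HKO peak 238 bp from the end (1.98) and an FF peak 104 bp from the start (4.49), the order seen for Ndufa12, Ndufab1 and Uqcrc2. The TCA cycle had 10 of 17 with a peak, with 1 in HKO alone (Suclg2, 7.22), 2 in FF alone (Cs, 1.73, and Dlat, 4.44) and 7 in both. Of the genes for mitochondrial transcription and its regulators, 13 of 15 had a peak, all 13 in both lists. Among them was Tfam, which packages mitochondrial DNA, with a fold of 11.4 in HKO and 18.3 in FF.

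Across the genome, 109 protein-coding genes bear the symbols of the rule, and 54 (49.5%) had a peak in either list, comprising 40 of 88 subunits (45.5%) and 14 of 21 assembly factors (66.7%). The share was 29.4% for ATP synthase, 44.4% for complex IV, 50% for complex III, 55.1% for complex I and 75% for complex II. The same share over all annotated protein-coding genes was not computed, so whether these shares are high or low cannot be said. The 88 subunits also include isoforms of other tissues. Several peaks lie where another gene overlaps, those of Atp5j (Gabpa), Ndufaf4 (Gm46848), Ndufb11 (Rbm10), Ndufb4c (Mroh5), Ndufs1 (Ino80dos), Uqcr10 (Gm51883), Uqcrc2 (Pdzd9) and Cox10 (9630013K17Rik). Whether reads were counted by strand is not stated in the sources used, so their reads may come from either gene.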

How the data were processed

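RNA of HKO and FF livers was analysed as 2 peak lists, each from 1 IP library and its input, made from 300 μg of RNA pooled from 3 mice. Per the series design text, the authors called peaks with exomePeak 2.16.0 at a q of 0.05. Per the submitters' processing notes, the build was GRCm38.p6 and tools included BWA 0.7.12, fastp 0.19.11 and HOMER 4.9.1, whose roles are not given in the sources used here. Per the file headers, the deposited values of each peak are a p-value (in the score column), log10 p and log10 q, and a fold (ratio) of IP over input. These are the authors' own values. The design text and the sample protocols name different antibodies and library kits. Samples were grouped by title.

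Peaks were compared in pandas 2.3.3 and scipy 1.17.1 (Python 3.11.15), and plotted with matplotlib 3.10.9, without any test, since each genotype is 1 pool. Coordinates count from base 1. The values of 1 complex I gene are not reported here, and it stays in the counts. Gene spans and promoters are from RefSeq tables; no genome was used. Overlap finding was checked by setting the FF peaks against a slightly shifted copy of them, with part of the copy moved away. The gene list, related lists and naming rule (per complex, genes in 1 list alone, peaks of highest fold or smallest q, pairs past 2-fold) were chosen with earlier results of these data known. Alternatives were stricter q or fold, equal list length, other overlaps, windows, pairing and centring.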

Additional observations from a re-analysis of the deposited data

How the results depend on the processing

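Of 137 values under alternative settings, 131 kept their size, taken as within 1.5 times for counts, within the 95% Wilson interval of the reported share, and within 0.58 for the centred log2 median (for percentile ranks, its sign). Of these, 3 moved by over 1.5 times: the start share of HKO-specific peaks, 23.1% as reported, was 9.09% without Ndufs5-ps, Ndufb4 and Ndufb4c, and the centred median, 0.22 as reported, was 0.09 without them and 0.48 uncentred. The interval of that start share is wide, 8.18 to 50.3%. Some of the 137 values could not change by construction. Examples are the position shares of all peaks under another overlap rule and the assembly factor counts without these 3 genes. The genes in the HKO list alone numbered 4 to 8 and those in the FF list alone 17 to 22 under all settings run, and the FF-specific peaks at gene starts 69 to 75%. The subunits in both lists, 15 as reported, were 9 at a q of 1e-05 or less and 9 at a fold of 2 or more. At a q of 1e-05 or less and at a q of 1e-03 or less, 1 assembly factor gene was in the HKO list alone, in place of 0, and 1 in the FF list alone, in place of 2; fewer peaks enter by construction. Leaving out these 3 genes, the 5′ edge as a measure and the position shares of short genes were chosen after seeing the data. No paired analysis was possible because each genotype has 1 pool and no test was run. Depth is unknown and limits what an absent peak can mean.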
